A study of Rattus norvegicus with 14 samples.

Results

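The genes described here bring fructose and glucose into the liver cell and carry them to pyruvate: Pklr, Tkfc, Khk, Slc2a5, Slc2a2, Gckr and Pfkfb1. They were chosen by name, with their values in this diet comparison already known, and all 7 were found among the 4736 genes named on the array, in 11 of the 8740 probe sets that are not controls. The material was liver RNA from male rats aged 74 days that had eaten 1 of 2 special diets for 53 days, labelled vitamin A sufficient or vitamin A deficient. It was measured on 14 Affymetrix rat arrays, 7 per diet: 4 from about 10 µg of total RNA (numbers 1 to 4) and 3 from about 2 µg (numbers 1, 2 and 4). The sources used here do not give the strain, the composition of the diets or the time of day. Values of arrays that share a diet and a number were averaged, and each average is called an animal, which gave 4 animals per diet. Whether such arrays come from 1 liver is not in the labels, so the errors measure only the spread between averaged values. Animal 3 of each diet had no 2 µg array.

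In liver, Slc2a2 encodes the main glucose transporter of the hepatocyte membrane and Slc2a5 encodes a fructose transporter best known from the small intestine. Ketohexokinase (Khk) phosphorylates fructose, and triokinase (Tkfc) phosphorylates the glyceraldehyde that arises further along, so that fructose enters glycolysis below phosphofructokinase. Gckr encodes a regulatory protein of the hepatocyte that responds to fructose phosphates. Pfkfb1 encodes the liver form of the bifunctional enzyme that makes and degrades the sugar bisphosphate activating phosphofructokinase. Pklr encodes the pyruvate kinase of liver, the last step of glycolysis, and, from a separate promoter, that of red cells. Its liver promoter is the textbook case of a carbohydrate response element, a pair of E box-like arms bound by the factor encoded by Mlxipl.

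The bases before the annotated start are shown for 3 genes whose levels were lower in deficient livers and, for contrast, for Slc2a2, whose levels were not. All 7 genes matched the RefSeq promoter table by symbol, and the 250 bases upstream of the start are those of the GRCr8 build. The Pklr window is chr2:176841014-176841263, plus strand. The Tkfc window is chr1:216677658-216677907, minus strand. The Slc2a5 window is chr5:165865929-165866178, plus strand, and the Slc2a2 window is chr2:113540120-113540369, plus strand. Capitals mark the arms of the pair and TATAAA in Pklr, and AGGTCA, a hexamer that retinoid receptors, among others, bind, in Slc2a2.
Pklr: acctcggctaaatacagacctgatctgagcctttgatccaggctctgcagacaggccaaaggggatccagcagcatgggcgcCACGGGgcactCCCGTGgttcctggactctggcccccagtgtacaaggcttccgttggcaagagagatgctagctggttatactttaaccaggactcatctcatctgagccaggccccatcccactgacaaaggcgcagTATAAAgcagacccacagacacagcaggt
Tkfc: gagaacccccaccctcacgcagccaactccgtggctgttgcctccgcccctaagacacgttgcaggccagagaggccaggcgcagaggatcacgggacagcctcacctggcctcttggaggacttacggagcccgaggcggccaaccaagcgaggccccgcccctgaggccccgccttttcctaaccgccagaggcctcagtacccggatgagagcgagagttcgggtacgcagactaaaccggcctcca
Slc2a5: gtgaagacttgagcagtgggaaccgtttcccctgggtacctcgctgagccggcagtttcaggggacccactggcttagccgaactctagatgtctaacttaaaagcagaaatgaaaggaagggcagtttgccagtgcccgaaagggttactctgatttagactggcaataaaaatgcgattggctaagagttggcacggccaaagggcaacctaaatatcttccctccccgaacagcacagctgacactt
Slc2a2: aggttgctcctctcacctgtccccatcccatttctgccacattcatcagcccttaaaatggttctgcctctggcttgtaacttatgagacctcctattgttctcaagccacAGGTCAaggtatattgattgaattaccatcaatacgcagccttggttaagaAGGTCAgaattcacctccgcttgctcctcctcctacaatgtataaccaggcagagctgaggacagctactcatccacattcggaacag

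Both strands of all 33469 windows of this length were searched. The pair of arms CACGGG and CCCGTG with 5 bases between them was spelled after the known Pklr element, so its match in Pklr was given in advance. It lay at bases -168 to -152 of Pklr, and Pklr was the 1 window that held it (0.00299% of windows). A looser spelling, CANGNG and CNCNTG with the same spacing, includes the first and so also had to match Pklr. It was found in 0.472% of windows and, among the 7 genes, again in Pklr alone. The E box CACGTG, present in 5.59% of windows, was in none of the 7. AGGTCA, in 14.1% of windows, occurred at -139 and -88 in Slc2a2 and once in Gckr, and AGTTCA, in 12.2%, occurred once in Pfkfb1. TATAAA, in 12.9% of windows, lay at -29 to -24 in Pklr. A match is a run of letters in the window and says nothing about binding.

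The deposited arrays had been scaled to a common level, and their trimmed means accordingly ran only from 1001.9 to 1002.1. Medians of the deposited intensity ran from 175.1 to 231 over the arrays. Precision is limited by how many arrays there are. Over the 5244 probe sets bright enough to be tested, 90 (1.72%) passed the diet test in limma at an adjusted p of 0.05, 38 higher and 52 lower in deficient livers. When arrays were scaled to equal medians, 75 passed, 17 higher and 58 lower. The count was 59 without sufficient animal 3 and 48 without deficient animal 4. The 7 hepatocyte markers on the array, Alb and Ttr among them, all read higher in deficient livers, by 0.03 to 0.63 on the log2 scale, and none passed, with 4 at an unadjusted p under 0.05 (14.5% of all probe sets). Their summed intensity was 337860 to 394120 on deficient and 276140 to 352220 on sufficient arrays.

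Pklr, Tkfc and Slc2a5 had the largest diet differences of the 7 genes, all toward lower levels in deficient livers. Khk and Gckr were lower by 0.35 each on the log2 scale, and Slc2a2 and Pfkfb1 did not separate by diet. Because the genes were picked on this comparison, their diet values are a description without a test. For orientation, 2 of the 10 tested probe sets were among the 0.992% of probe sets that passed as lower in deficient livers, those of Pklr and Tkfc, and none was among the 0.725% that passed as higher. In 4 of the 10 the averaged values of the deficient animals all lay under those of the sufficient animals, as in 3.07% of all probe sets tested, and in 2 every single array did, as in 1.3%. In none did all deficient averages or all deficient arrays lie above the sufficient ones, as they did in 5.84% and 1.56% of probe sets. The difference was under 0 in 6 of the 10, against 41.6% of all, and reached 0.5 in size in 3, against 9.74%. The median difference over the 10 probe sets was -0.221 on the log2 scale, against 0.0439 over all 5244. As the genes were picked on this comparison, these shares do not test them. Pfkfb1 alone supplies 4 of the 10 probe sets. The tested Slc2a5 probe set, among the 4 without overlap, had a deficient mean of 5.85, under the brightness limit of 6.196, and was tested only through its sufficient arrays. Levels are log2 of the scaled intensity plus 16. Each difference subtracts the sufficient from the deficient mean and is given with its standard error (SE). Levels of different probe sets are not comparable with each other.

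**Figure D1:**
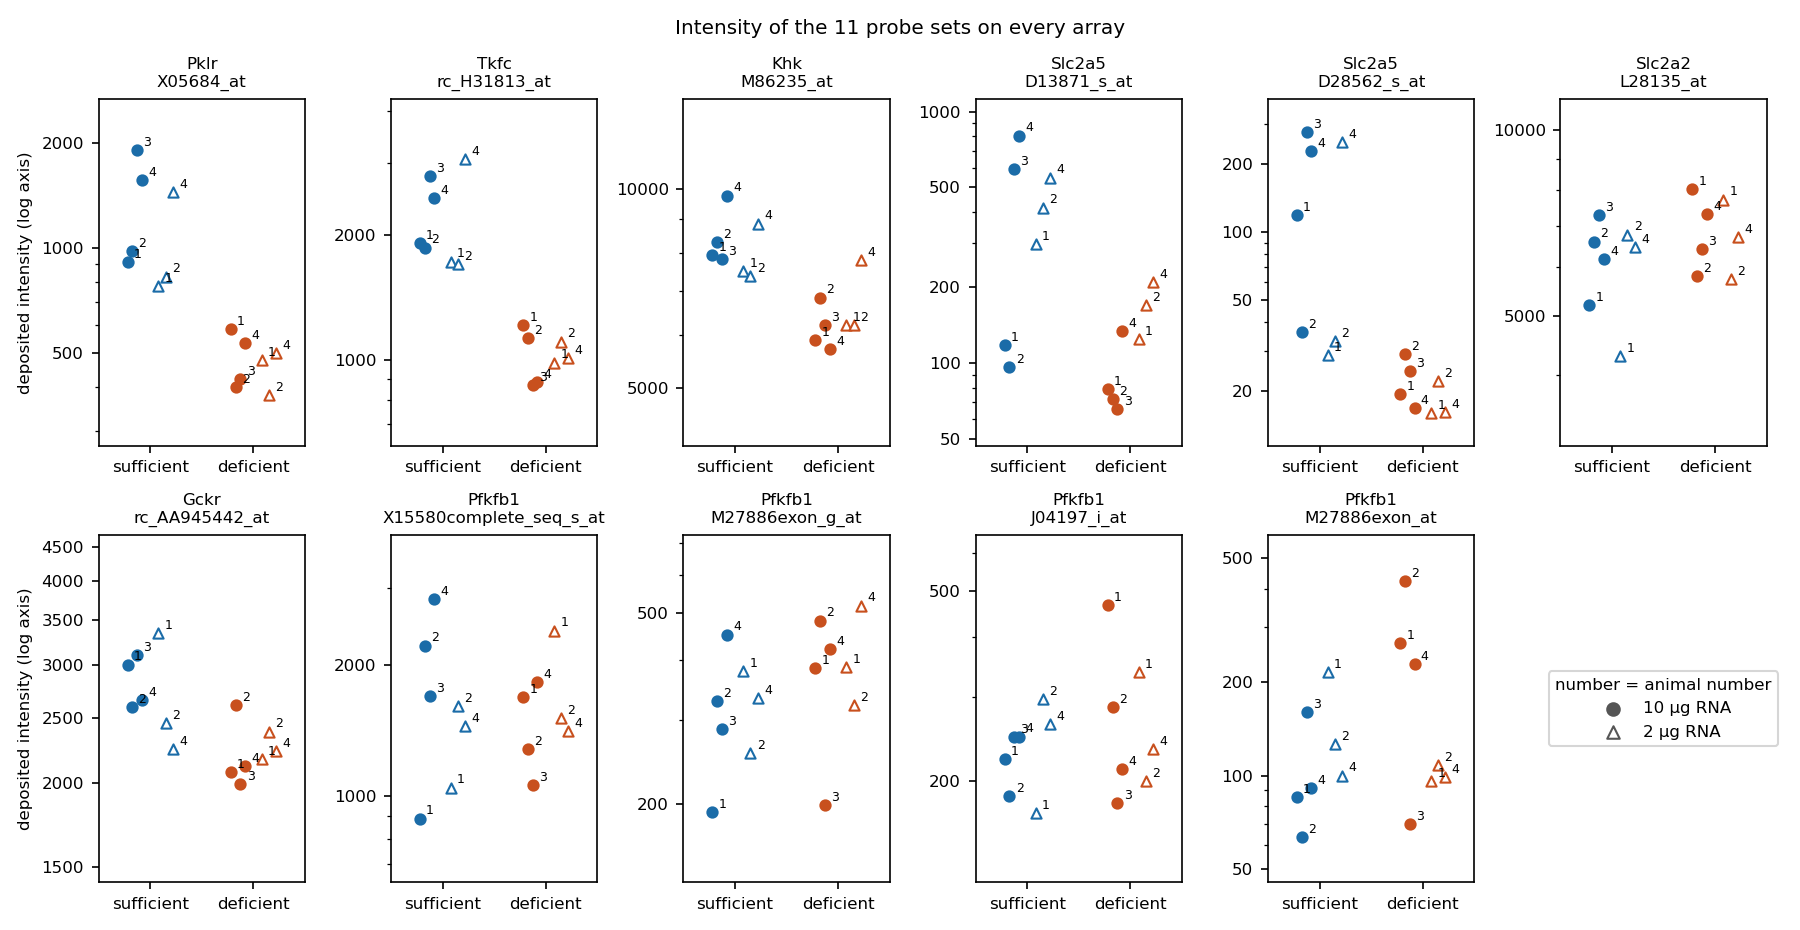
Deposited intensity (log axis) of the 11 probe sets of the 7 genes on each of the 14 arrays, by diet, with filled circles for 10 µg of RNA, open triangles for 2 µg and the animal number beside each point. Pklr and Tkfc show no overlap between diets, at 776.7 to 1904.0 against 380.2 to 585.8 for Pklr, whereas Slc2a2 and the Pfkfb1 probe sets overlap between diets.

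The fructose transporter Slc2a5 was measured by a pair of probe sets whose names end in _s_at, which marks probes that can match more than 1 transcript. On the brighter, D13871_s_at, the 10 µg arrays of sufficient animals 1 to 4 read 118.3, 96.5, 590.3 and 803.7, and the 2 µg arrays of animals 1, 2 and 4 read 297.9, 416.1 and 546.9. The deficient arrays read 79.0, 72.1, 65.6 and 134.2 from 10 µg and 124.3, 170.0 and 210.3 from 2 µg. On the 10 µg arrays sufficient animals 3 and 4 stood far above the rest, and sufficient animals 1 and 2 lay within the range of the deficient arrays. On the 2 µg arrays, which lack animal 3, every sufficient reading exceeded every deficient reading, and animals 1 and 2 lay closer to animal 4. After averaging, the level was 5.85 ± 0.30 (SD, n = 4) in deficient and 7.34 ± 0.98 (SD, n = 4) in sufficient livers, a difference of -1.49 (SE 0.41), or 2.81-fold. The deficient level lies under the brightness limit of 6.196 used for testing, so the size of this difference depends on the pseudocount, with -1.71 for a pseudocount of 1 and -1.08 for 64.

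On D28562_s_at, the dimmer Slc2a5 probe set, the sufficient arrays read 119.3, 36.3, 276.0 and 227.9 from 10 µg and 28.7, 33.0 and 249.8 from 2 µg. The 7 deficient arrays lay between 16 and 29.0. The highest readings were again those of sufficient animals 3 and 4, and the sufficient 2 µg array of animal 1 fell just under the highest deficient array. This probe set was too dim to be tested. Its averaged levels were 4.83 ± 0.11 against 6.35 ± 1.06 (SD, n = 4 each), and the deficient value was near 4, the floor of this scale for an intensity of 0. Relative to the mean over the 8 animals, sufficient animals 3 and 4 stood at 1.69 and 1.49 on the brighter probe set and at 1.69 and 1.63 on the dimmer one. Markers of intestinal epithelium, where this transporter is abundant, were mostly dim: 2 of 5 were bright enough to test, none passed the diet test in limma (0 at an unadjusted p under 0.05), their summed intensity was 516.7 to 919.9 on deficient and 468.8 to 763.4 on sufficient arrays, and none was listed at 0. Their part in the Slc2a5 readings was not tested.

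Slc2a2, the hepatocyte glucose transporter, was bright and did not separate by diet. Its intensity had a median of 6466.8 on the sufficient arrays (4303.0 to 7294.8) and 6711.0 on the deficient arrays (5737.6 to 8033.4). The averaged level was 11.75 ± 0.19 in deficient and 11.63 ± 0.26 in sufficient livers (SD, n = 4 each), a difference of 0.12 (SE 0.15). Both arrays of sufficient animal 1, at 5208.2 and 4303.0, were the lowest of all 14, and without that animal the difference was -0.01, so its sign is not settled.

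Khk, which commits fructose to metabolism, read 7927.9, 8299.4, 7834.2 and 9760.6 on the sufficient 10 µg arrays and 7508.2, 7382.5 and 8852.8 on the 2 µg arrays. The deficient arrays read 5904.6, 6845.0, 6218.4 and 5718.2 from 10 µg and 6214.4, 6226.2 and 7796.3 from 2 µg. Among the 14 arrays the overlap came from 1 reading, the deficient 2 µg array of animal 4, which exceeded the lower sufficient arrays. The averaged levels did not overlap, at 11.65 ± 0.06 against 12.01 ± 0.13 (SD, n = 4 each), a difference of -0.35 (SE 0.10), or 1.28-fold. It was -0.45 in the 10 µg arrays and -0.23 in the 2 µg arrays.

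Tkfc, the triokinase that follows in the fructose pathway, differed more. The sufficient arrays read 1917.4, 1870.5, 2786.8 and 2457.3 from 10 µg and 1729.2, 1706.5 and 3054.2 from 2 µg. The deficient arrays read 1216.6, 1129.5, 868.5 and 883.3 from 10 µg and 986.3, 1108.1 and 1012.0 from 2 µg. No array of either diet reached into the other group, and animals 3 and 4 were again the highest sufficient animals. The averaged level was 9.03 ± 0.17 in deficient and 10.16 ± 0.35 in sufficient livers (SD, n = 4 each), a difference of -1.13 (SE 0.17), or 2.19-fold.

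Gckr, the regulatory protein, was somewhat lower in deficient livers. It read 3005.8, 2596.9, 3105.8 and 2658.1 on the sufficient 10 µg arrays and 3344.2, 2460.5 and 2252.2 on the 2 µg arrays. The deficient readings were 2080.7, 2614.9, 1993.6 and 2119.9, and 2173.4, 2389.2 and 2236.6. The ranges overlapped through both arrays of deficient animal 2, on one side, and both arrays of sufficient animal 2 and the 2 µg array of sufficient animal 4, on the other. The difference was -0.35 (SE 0.13), from 10.48 ± 0.19 to 10.14 ± 0.14 (SD, n = 4 each).

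Pfkfb1 was measured by 4 probe sets, of which none separated the diets. The brightest, X15580complete_seq_s_at, had a median intensity of 1609.8 on sufficient arrays (889.1 to 2821.4) and 1510.1 on deficient arrays (1062.3 to 2393.6). Its difference was -0.10 (SE 0.25), with -0.29 in the 10 µg arrays and 0.35 in the 2 µg arrays. The other probe sets differed by 0.16 (SE 0.23), 0.09 (SE 0.22) and 0.21 (SE 0.30). The dimmest of them, M27886exon_at, read 69.9 to 423.6 on deficient arrays, a 6.06-fold range within 1 diet.

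Pklr, the last enzyme of the route, read 909.1, 981.7, 1904.0 and 1562.7 on the sufficient 10 µg arrays and 776.7, 827.6 and 1443.2 on the 2 µg arrays. The deficient readings were 585.8, 399.3, 421.4 and 535.3 from 10 µg and 478.5, 380.2 and 499.3 from 2 µg. The lowest sufficient array thus stood above the highest deficient array, and sufficient animals 3 and 4 read about as far above animals 1 and 2 as those did above the deficient animals. The averaged level was 8.02 ± 0.23 in deficient and 9.36 ± 0.53 in sufficient livers (SD, n = 4 each). The difference was -1.34 (SE 0.23), or 2.53-fold, and it ranged from -1.51 without sufficient animal 1 to -1.15 without sufficient animal 3.

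**Figure D2:**
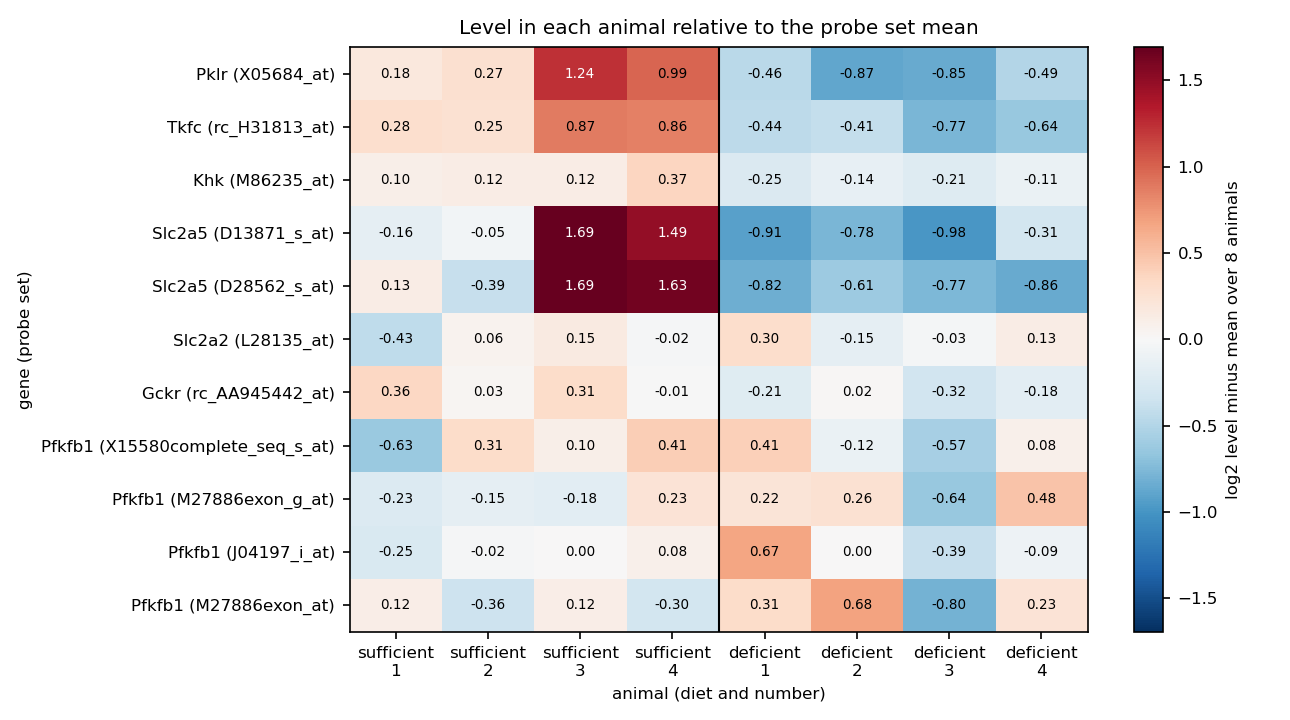
Log2 level of each of the 11 probe sets in each of the 8 animals, minus the mean of that probe set over the 8, with red for above and blue for below and the value printed in each cell. Sufficient animals 3 and 4 hold the highest values of Pklr (1.24 and 0.99), Tkfc (0.87 and 0.86) and both Slc2a5 probe sets, and no such pair stands out for Gckr or Slc2a2.

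The spread within the sufficient diet was therefore part of the pattern. Over the 4 sufficient animals Pklr spanned 1.06 on the log2 scale, Tkfc 0.622 and Slc2a5 1.85 and 2.08 by its probe sets, against 0.414, 0.364, 0.676 and 0.247 over the deficient animals. On the dimmer Slc2a5 probe set the deficient arrays read 16 to 29.0, near the floor of the scale, which by itself narrows their span. The deficient mean on the brighter one, 5.85, was under the brightness limit of 6.196. Khk spanned 0.268 and 0.139. Sufficient animals 1 and 2 lay above the deficient animals for Pklr, at 0.18 and 0.27 relative to the mean against -0.46 at most. For the brighter Slc2a5 probe set they stood at -0.16 and -0.05, against -0.31 for the highest deficient animal.

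Red cell transcripts moved with the diet in the same direction as Pklr, which red cells also express. All 6 tested erythroid markers had a difference under 0, and 4 passed. Those were the beta globins Hbb (-1.46, SE 0.18, limma adjusted p = 0.00178) and Hbb-b1, the alpha globin Hba-a3, and Alas2, whose product starts the heme pathway in red cell precursors (-1.23, SE 0.18). The summed intensity of the 7 erythroid markers on the array was 7527.2 to 13569 on deficient and 23488 to 31673 on sufficient arrays, without overlap, and none was listed at 0. In bulk liver, fewer cells of a type and less RNA per cell cannot be told apart. Within the sufficient diet, where Pklr spanned 1.06, Hbb spanned 0.304, Hbb-b1 0.362, Hba-a3 0.376 and Alas2 0.475. Hba-a3, like Pklr, was highest in sufficient animals 3 and 4, at 8.72 and 8.63 against 8.41 and 8.34 in animals 1 and 2. Hbb and Hbb-b1 were highest in animal 3, followed by animal 2, and Alas2 was highest in animal 2. Whether the Pklr probe set reads the liver form, the red cell form or both was not examined, as its probe sequences were not used here. The part of red cell RNA in the Pklr values was not tested.

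Among the other marker lists, endothelial and macrophage sums did not overlap between the diets. Endothelial markers summed to 966.8 to 1244.2 on deficient and 1410.2 to 2049.5 on sufficient arrays. Of 4 tested, 3 had a difference under 0 and 1 above, and Lyve1 alone passed (-1.04, SE 0.16, limma adjusted p = 0.0073). That call was lost in the 2 µg arrays alone (adjusted p = 0.0947). Aqp1 was lower by as much but did not pass (-1.04, SE 0.24, adjusted p = 0.0563). Macrophage markers summed to 17078 to 24650 against 14961 to 16217. All 7 tested had a difference above 0 (median 0.276). Only the galectin Lgals3 passed, a call lost in 15 of 19 alternative analyses (adjusted p up to 0.161). Ctss was 0.65 (SE 0.16, limma adjusted p = 0.0696). Stellate cell markers summed to 6039.1 to 7542.8 on deficient and 5874.8 to 7755.5 on sufficient arrays. Of the 9 tested, 6 had a difference under 0 (median -0.14), among them the collagen gene Col1a1 (-0.85, SE 0.24, limma adjusted p = 0.121), and the 1 that passed was the intermediate filament gene Vim, which rose, a call lost in 9 of 19 alternatives. No marker of cholangiocytes, lymphocytes, pancreas, kidney or muscle passed among 5, 4, 5, 2 and 2 tested, with 2, 1, 0, 0 and 0 at an unadjusted p under 0.05. No marker of any list was listed at 0. Their part in the levels of the 7 genes was not tested.

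Among clock transcripts, which follow the time of day and of feeding, Dbp and Nr1d1 read higher in deficient livers, although neither passed the diet test. On the brighter of its probe sets, J03179_g_at, the output regulator Dbp read 9.43, 9.18, 9.42 and 9.72 on the log2 scale in deficient animals 1 to 4, and 4.69, 9.37, 7.68 and 6.58 in sufficient animals 1 to 4. Sufficient animal 2 lay within the deficient range and the other sufficient animals lay below it. On J03179_at all 4 sufficient animals lay below the deficient ones, with sufficient animal 2 at 7.38 against 7.42 for the lowest of them (difference 1.91, SE 0.45, limma adjusted p = 0.0633). In limma none of 6 tested clock genes passed the diet test, with 3 at an unadjusted p under 0.05 (Dbp on J03179_g_at 2.36, SE 0.74, adjusted p = 0.157, and Nr1d1 0.86, SE 0.27, adjusted p = 0.164), with a list median of 0.497 against 0.0439 over all probe sets. Dbp passed without sufficient animal 2 (adjusted p = 0.0194). On its other probe set, M25804_at, Nr1d1 read 1.525 higher in deficient livers (SE 0.384, limma adjusted p = 0.0832). The other tested clock genes were Nr1d2 (0.75, SE 0.275, limma adjusted p = 0.245), Tef (0.24, SE 0.139), Per2 (0.03, SE 0.295) and Bhlhe40 (-0.005, SE 0.149). Among the sufficient animals Dbp was highest in animal 2 and Pklr in animals 3 and 4. Whether sampling time bears on the 7 genes was not tested.

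The other genes of carbohydrate metabolism did not all shift toward lower levels, and the lists differed in this. Over lists on fructose and polyol entry, glucose uptake and release, glycolysis, pyruvate entry to mitochondria, gluconeogenesis and glycogen, no gene outside the 7 passed in limma among 2, 4, 10, 9, 9 and 9 tested, with 0, 1, 3, 1, 1 and 1 at an unadjusted p under 0.05. Their median differences were -0.02, 0.10, -0.00, -0.27, 0.01 and 0.11. In the pyruvate list 7 of 9 tested genes had a difference under 0 and 2 above. Pdk4 was the lowest of them (-1.10, SE 0.49, limma adjusted p = 0.331). The pentose phosphate and the carbohydrate and insulin responsive lists, described further on, had medians of -0.552 (2 tested) and -0.157 (16 tested). In the fructose list the sorbitol dehydrogenase Sord was 11.86 ± 0.11 against 11.85 ± 0.26 (difference 0.01, SE 0.14), and the aldose reductase gene Akr1b1 differed by -0.05 (SE 0.13).

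Within glycolysis 5 of the 10 tested genes outside the 7 had a difference under 0 and 5 above. By the brightest probe set per gene, Aldoa, the aldolase of muscle and other tissues, differed most, at 0.61 (SE 0.16, limma adjusted p = 0.0936). Next were Ldhb, a lactate dehydrogenase subunit, at 0.38 (SE 0.21, adjusted p = 0.476), and Pfkm, a phosphofructokinase subunit, at 0.38 (SE 0.14, adjusted p = 0.245). Pgk1 was lower on both tested probe sets, at -0.31 (SE 0.11, adjusted p = 0.208) on the brightest. On M31788_g_at it was -0.43 (SE 0.12, adjusted p = 0.109), larger in size than Ldhb and Pfkm. Pkm, the pyruvate kinase of other tissues, differed by -0.04 (SE 0.17), and Pfkl, the liver phosphofructokinase, by 0.04 (SE 0.15). The widely expressed glucose transporter Slc2a1 was dim, at 6.99 ± 0.28 against 6.07 ± 0.35 with sufficient diet (SD, n = 4 each; 0.92, SE 0.23, limma adjusted p = 0.0857). Fbp1 (0.13, SE 0.09), the fructose bisphosphatase of glucose synthesis, and Pck1 (-0.62, SE 0.41), its carboxykinase, did not pass, and neither did the glycogen phosphorylase Pygl (-0.41, SE 0.14, adjusted p = 0.204) or the glycogen synthase Gys2 (0.17, SE 0.12).

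The 2 tested pentose phosphate genes both had a difference under 0. Tkt, the transketolase, passed (-0.81, SE 0.15, limma adjusted p = 0.0183) by 1 of its 2 probe sets. That call was lost without sufficient animal 3, deficient animal 2 or deficient animal 4 (adjusted p up to 0.0604) and in the 2 µg arrays alone (adjusted p = 0.255). Of 16 tested carbohydrate and insulin responsive genes Scd, a desaturase of fat synthesis, fell (-2.93, SE 0.29, adjusted p = 2.7e-04), and the other 15 did not pass. They include the regulators Srebf1 (-0.17, SE 0.20), Hnf4a (0.33, SE 0.12) and Txnip (0.11, SE 0.13), and the insulin-repressed Igfbp1 (1.14, SE 0.60). Also among them were Me1, by its brightest probe set (-0.84, SE 0.25, limma adjusted p = 0.146), and Acaca (-0.55, SE 0.22, adjusted p = 0.282). Of the 16 tested, 10 had a difference under 0 and 6 above. Acly, which supplies acetyl-CoA for fat synthesis, was -0.73 (SE 0.19, adjusted p = 0.0857) and passed without deficient animal 1 (adjusted p = 0.0292). Of the Fasn probe sets, for the enzyme that builds fatty acids, the brightest gave -0.40 (SE 0.19) and the other passed, at -0.99 (SE 0.21, adjusted p = 0.0412). Among 8 genes of the glucagon and cAMP response Sds, the serine dehydratase, rose (2.09, SE 0.34, adjusted p = 0.0101), and Gcgr, the glucagon receptor, differed by -0.37 (SE 0.14, adjusted p = 0.265). Crem, a cAMP-responsive factor, was -0.57 (SE 0.13, adjusted p = 0.0563) by its brightest probe set, which passed when animal 1 of either diet was left out (adjusted p = 0.0443 for sufficient and 0.0375 for deficient), whereas another passed at -0.98 (SE 0.21, adjusted p = 0.0418).

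The profiles most like that of Pklr were sought over the 8 animals. For 4328 tested probe sets with 1 gene symbol, likeness was the mean absolute difference from Pklr per animal after each profile was centred, in log2 units. Tkfc came first, at 0.168, followed by a Fasn probe set (0.209), Slc25a30, a mitochondrial carrier (0.233), the probe set annotated to Rpp21 (0.238) and C8h11orf54 (0.253), against a median of 0.704. The brighter Slc2a5 probe set ranked 10, Khk 158 and Gckr 306, while Slc2a2 ranked 2572. Since this measure holds the diet difference on which the genes were chosen, it was repeated after each diet's own mean had been removed, an addition made after the values were seen. Tkfc then lay at 0.162 and rank 19, closer than the 0.320 of a profile with no variation. Slc2a2 lay at 0.189 and rank 61, and Khk, at 0.287, and Slc2a5, at 0.309, were near that of the flat profile. The distance also grows with a difference in size, so it cannot decide which profile rose and fell with Pklr. Over the sufficient animals the brighter Slc2a5 probe set spanned 1.85 against 1.06 for Pklr. It ranked those animals in the same order as Pklr, and Slc2a2 did not. Over the deficient animals Slc2a2 had the order of Pklr and Slc2a5 did not. These distances rest on 8 animals and are descriptive.

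RNA amount gave a comparison that played no part in choosing the genes. In 6 pairs of arrays of the same diet and number, Pklr was lower from 2 µg in 6, with differences from -0.275 to -0.0653 on the log2 scale, although the comparison did not pass. Over all 14 arrays the level was 8.46 ± 0.67 (SD, n = 6) from 2 µg and 8.69 ± 0.81 (SD, n = 8) from 10 µg, a fitted difference of -0.23 (SE 0.18, limma adjusted p = 0.882). With diet and number as a block it was -0.17 (adjusted p = 0.485). For Tkfc the fitted difference was -0.03 (SE 0.14) and for Khk 0.01 (SE 0.09).

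The brighter Slc2a5 probe set read higher from 2 µg in 5 of the 6 pairs, with differences from -0.532 to 1.80 (fitted difference 0.62, SE 0.37, limma adjusted p = 0.827). The dimmer probe set was lower from 2 µg in 5 of 6 pairs (-1.32 to 0.115), so the pair of probe sets did not move alike with the amount of RNA. None of the 10 tested probe sets of the 7 genes passed, against 0% of the 5244, of which 347 (6.62%) had an unadjusted p under 0.05. With the block 2 of the 5244 (0.0381%) passed, neither of them one of the 7 genes.

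**Figure D3:**
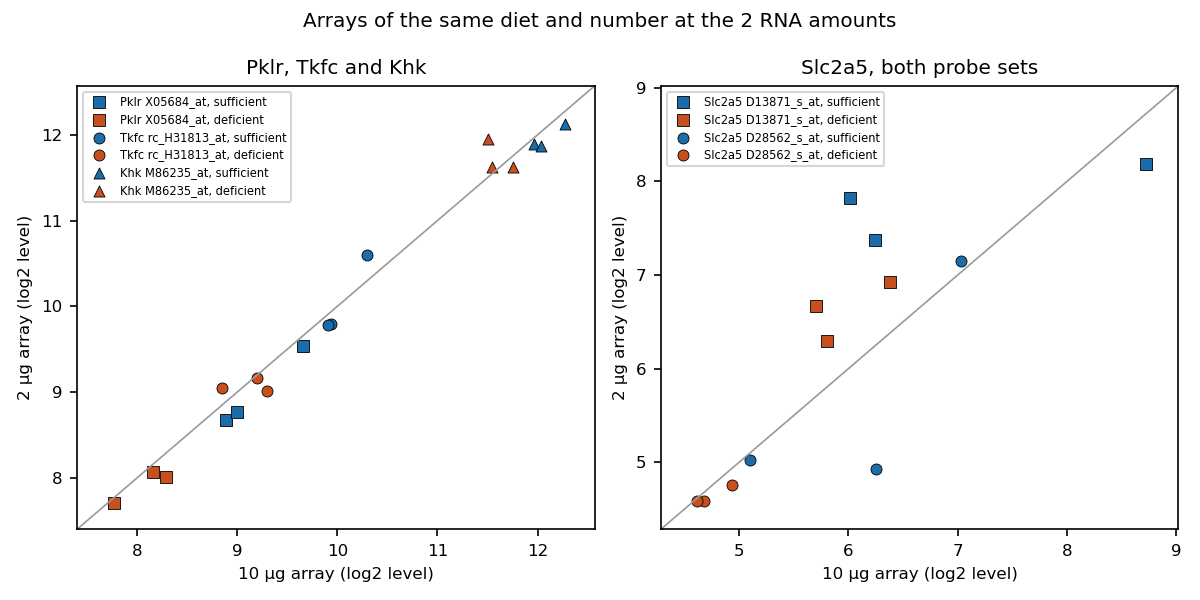
Log2 level on the 2 µg array against the 10 µg array of the same diet and number (6 pairs), in the left panel for Pklr, Tkfc and Khk and in the right panel for both Slc2a5 probe sets, blue for sufficient and orange for deficient, with the line of equality in grey. Pklr lies under the line in 6 of 6 pairs, and D13871_s_at lies above it in 5 of 6.

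The interaction of diet and RNA amount asked whether the diet differences held at both amounts, in arrays taken one by one. It did not pass for any of the 10 probe sets in limma. For Pklr the diet difference was -1.36 in the 10 µg and -1.07 in the 2 µg arrays (interaction 0.29, SE 0.37), and for Tkfc it was -1.11 and -0.99 (0.12, SE 0.30). For the brighter Slc2a5 probe set it was -1.44 and -1.16 (0.28, SE 0.75). The SE of that last interaction leaves room for a difference as large as the effect. The 2 µg arrays lack animal 3, so the differences at the 2 amounts come from different sets of animals. With diet and number as a block, the interaction was 0.05 for Pklr, -0.05 for Tkfc and -0.14 for the brighter Slc2a5 probe set (limma adjusted p = 0.997 for each). The lowest unadjusted p was that of the dim Pfkfb1 probe set M27886exon_at, whose difference was 0.94 from 10 µg and -0.38 from 2 µg (adjusted p = 1). Over all 5244 probe sets 0 passed (0%), with 96 (1.83%) at an unadjusted p under 0.05, and 0 with the block.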

How the data were processed

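The authors deposited 1 table of linear intensity values per probe set for 14 Affymetrix arrays. Per the labels, targets were made from about 10 µg or 2 µg of total RNA. The program that computed the intensities is not given in the sources used here, and the values show that each array had been scaled to 1 level. All 14 columns were used and 0 left out.

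The 59 control probe sets were removed, arrays were scaled to a trimmed mean of 500 (2% off each end), and log2 was taken after adding 16. Probe sets with a mean under the 40th percentile (6.196) were not tested. The platform annotation gave 7006 probe sets 1 symbol and 308 several, with 1426 unnamed here, and 6985 of the 7006 matched a GRCr8 RefSeq gene. The brightest tested probe set stood for a gene.

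For the diet, the mean shift between RNA amounts was removed, which puts averaged levels on the scale of the 10 µg arrays. Animals were then fitted in limma 3.58.1 (R 4.3.3, lmFit, eBayes with trend, two-sided, Benjamini-Hochberg, threshold 0.05). Amount and interaction used 14 separate arrays. Arrays were paired by the diet and number in their labels. Such same-numbered arrays of a diet correlated at 0.202 to 0.351 in 6 of 6 pairs (deviations from group means). These correlations describe the pairs and did not define them. The same numbers across diets correlated at -0.0763 to 0.0672. Fits were tested on simulated arrays.

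The members, lists, markers and naming rule (the 7 genes, list genes that passed, up to 4 more per list, 5 profiles like Pklr) were chosen with earlier results of these data known.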

Additional observations from a re-analysis of the deposited data

Results flagged for a closer look

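In sufficient animal 4 the Khk level stood apart from the other 3 sufficient animals, with a gap to the nearest of them that made up 0.923 of the range of the group, above the critical value of 0.829 for 4 values. Without that animal the Khk difference was -0.29 instead of -0.35. Over the 22 groups of 4 checked, chance alone gives about 1 such gap in 20.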

How the results depend on the processing

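The diet count of 90 was 33 in the 2 µg arrays alone and 250 in a fit of all 14 arrays with a random block for arrays that share diet and number, and it ranged from 48 to 94 when 1 animal was left out. With the number across the diets as a replicate block it was 78 (63 of them shared), a block that the correlations do not bear out, and the Lgals3 call was lost (adjusted p = 0.107). The RNA amount count of 0 became 2 with diet and number as a replicate block and ranged from 0 to 2 without 1 animal (2 without sufficient animal 1, 1 without sufficient animal 3), while the interaction count was 0 in every alternative run. Genes outside the 7 that did not pass but did so under some alternatives were Crem (5 alternatives, adjusted p down to 0.00934), Acly (4, down to 0.0284), Dbp (2, down to 0.0194), Aldoa (1, 0.0212) and Nr1d1 (1, 0.0498), each of them with the random block. The cause of these changes was not tested. Leaving out an animal or an RNA amount also leaves fewer arrays, whereas the fit with the random block used all 14. Over up to 19 alternatives the difference of Pklr lay between -1.51 and -1.07, Tkfc between -1.24 and -0.99, the brighter Slc2a5 probe set between -1.79 and -1.08, Khk between -0.45 and -0.23 and Gckr between -0.41 and -0.22. The sign changed in at least 1 alternative for Slc2a2 and for 3 of the 4 Pfkfb1 probe sets. Of 147 amount values and 147 interaction values of the 7 genes under alternatives none passed, and 20 and 12 changed sign. Dim probe sets, such as those of Slc2a5, are limited by signal over background.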
